A study of Danio rerio with 8 samples.

Results

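Transcripts of 4 genes that act around the handover from maternal to zygotic control were followed in zebrafish (Danio rerio) embryos under normal and low oxygen. The genes were nanog (NM_001098392), sox19b (NM_131702), slbp2 (NM_001080176) and zp2.2 (NM_131827). They were chosen by name, with earlier results of these data known, and each was represented by 1 row. They are 4 of 2650 genes that could be given a symbol on an array of 37157 rows. Whole wildtype embryos, of a strain that the labels do not name, were collected as gastrulae at the shield stage (6 h) or in segmentation at 8 somites (12 h). In each of the 4 groups the labels list 2 samples, each a pool of 12 to 15 embryos freed of their chorions and picked by hand at a matched stage. Normoxic embryos had no stress, and hypoxic embryos spent 1 to 2 h in medium equilibrated to less than 1% oxygen. Values exist for 7 arrays, namely 2 of gastrula normoxia, 2 of gastrula hypoxia, 2 of segmentation normoxia and 1 of segmentation hypoxia, and the second hypoxic segmentation sample was not analysed here.

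An egg is loaded with messenger RNA made in the ovary, and the early embryo runs on it until its own genome is switched on and the maternal messages are cleared. In zebrafish the homeodomain protein Nanog, the SoxB1 protein Sox19b and Pou5f3 are supplied by the mother and start zygotic transcription together. Sox19b belongs to a family that is later found in the developing nervous system. The slbp2 gene encodes a stem-loop binding protein, of a family that binds the 3′ ends of histone messages, and in Xenopus the second such protein acts in oocytes. The zp2.2 gene encodes a zona pellucida protein of the egg coat, which is laid down before fertilisation.

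All values are deposited log2 array values. The scale was inferred from their range, 6.85 to 15.96, and probe sensitivity differs between rows, so levels were compared between arrays within a gene and not between genes. Array medians lay between 8.51 and 8.74, and replicates correlated over rows at r = 0.975, 0.973 and 0.978 in the 3 groups with replicates. The interquartile range was narrower on the hypoxic gastrula arrays (2.18 and 2.31) than on the normoxic ones (2.75 and 2.86). The stage labels were checked with somite and muscle genes, of which 4 of 6 measured rose by 12 h and 0 fell, beside 6.21% of all rows that rose. That count was 0 without either normoxic segmentation replicate and with replicate number as a block within stage or crossed, and 1 without either hypoxic gastrula replicate or on the compared arrays alone. In whole embryos, fewer cells that carry a transcript and less transcript per cell cannot be told apart, nor can maternal and newly made copies.

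In normoxic embryos, nanog and zp2.2 fell between 6 h and 12 h, and neither slbp2 nor sox19b passed the test in the fit with dye. On the gastrula arrays nanog read 14.14 and 14.39, and on the segmentation arrays it read 10.55 and 10.94. The stages were far apart, with replicates at most 0.40 apart. Nanog fell by 3.52 ± 0.35 (SE) on the log2 scale, to an 11.5-fold lower level. The 95% interval ran from -4.43 to -2.62, with 2 arrays in each group, and the limma adjusted p was 0.0082. Its percentile rank among all rows of the array went from 97.0 to 75.5 as group means.

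The egg coat transcript zp2.2 read 15.10 and 15.17 in gastrulae and 13.62 and 14.08 at 8 somites. The groups did not overlap, and the segmentation replicates were farther apart than the gastrula ones. The difference was -1.28 ± 0.22, or 2.43-fold lower (interval -1.86 to -0.70; limma adjusted p = 0.033). Its row stayed among the brightest on every array, at the 95.1 percentile or above.

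The histone message binding gene slbp2 read 9.09 and 9.83 in gastrulae and 8.06 and 8.55 at 8 somites. These groups did not overlap either, but the gastrula replicates differed by 0.74, a larger gap than that of 89.6% of rows on that pair of arrays. The difference of -1.16 ± 0.33 (interval -2.004 to -0.31) did not pass in the fit with dye (limma adjusted p = 0.11, unadjusted p = 0.017). With replicate number as a block in place of dye, its SE was 0.20 and it passed (limma adjusted p = 0.032). In that fit 4367 of 37157 rows passed in either direction. Same-numbered normoxic arrays of the stages deviated together over rows (r = 0.54) and carry opposite dyes. For gastrula hypoxia and segmentation normoxia, which differ in oxygen, the sign was opposite (r = -0.27). Neither dye nor number held for both pairs, and a block by number within oxygen was not fitted. The difference also turned on single arrays. Without gastrula normoxia replicate 1 it was -1.61 and passed (limma adjusted p = 0.026), without gastrula normoxia replicate 2 it was -0.70 (0.24), and without segmentation normoxia replicate 1 it was -0.68 (0.43).

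For sox19b the values were 11.44 and 11.74 in gastrulae and 11.26 and 11.37 at 8 somites. The segmentation arrays lay just below the gastrula arrays, by less than the gap within the gastrula pair. The difference was -0.27 ± 0.22 (interval -0.85 to 0.30; limma adjusted p = 0.63).

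Thus 2 of the 4 genes passed in this comparison, where 3.88% of all rows passed as lower and 10.1% passed in either direction. As the genes were chosen with earlier results of these data known, these shares are a description and no test of the set. All 4 had both segmentation arrays below both gastrula arrays, as had 28.8% of all rows. Both calls were lost when either normoxic segmentation replicate was left out, although the nanog difference hardly changed and its SE rose from 0.35 to 0.52. Without segmentation normoxia replicate 1, nanog differed by -3.54 (limma adjusted p = 0.067) and zp2.2 by -1.01 (0.18), and without segmentation normoxia replicate 2 by -3.51 (0.071) and -1.55 (0.091). The call of zp2.2 was also lost without gastrula normoxia replicate 2 (-1.16, adjusted p = 0.072) and without either hypoxic gastrula replicate (-1.28, adjusted p = 0.084 each).

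**Figure D1:**
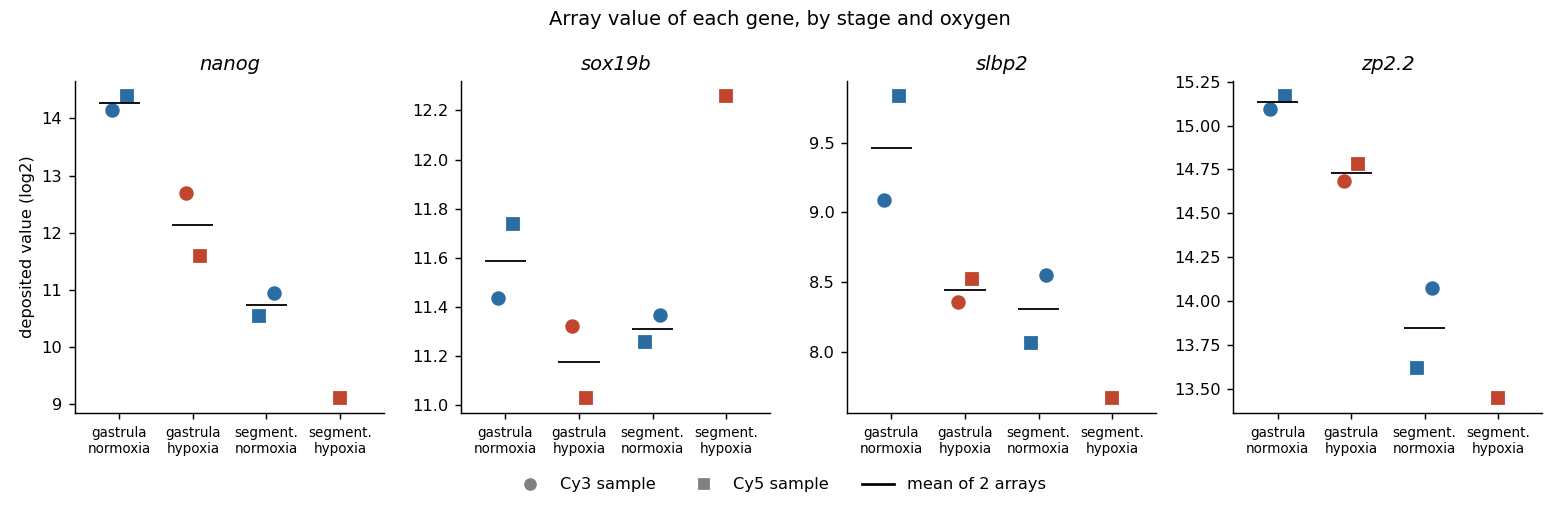
Deposited log2 value (vertical axis, a separate range for each gene) of nanog, sox19b, slbp2 and zp2.2 on each of 7 arrays by group, blue for normoxia and red for hypoxia, with circles for Cy3 and squares for Cy5 samples and lines at the mean of 2 arrays. For nanog the values step down from 14.39 in a normoxic gastrula sample to 9.11 in the hypoxic segmentation sample, and for sox19b the hypoxic segmentation sample, at 12.26, is the highest of all.

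The stage comparison was extended to 7 lists of maternal and early embryonic genes, which hold 247 genes besides these 4, of which 20 were measured. Of the 20, 6 fell between the stages, 1 rose and 13 did not pass in the fit with dye, while 8 fell and 1 rose without it. Without dye 4890 of 37157 rows passed in either direction. The median difference with dye was -0.62 beside -0.06 over all rows, of which 3.88% fell and 6.21% rose. Because the lists too were chosen with earlier results of these data known, the shares are a description. Without gastrula normoxia replicate 2, or without either hypoxic gastrula replicate, 2 fell, and without segmentation normoxia replicate 1 or replicate 2 none of the 20 passed.

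Of 20 listed egg coat genes 3 were measured and all 3 fell, zp2.2 among them. Its relative zp2.3 (NM_131828) read 13.32 and 13.31 in gastrulae and 11.77 and 12.05 at 8 somites, a difference of -1.41 ± 0.19 (limma adjusted p = 0.016). The other egg coat gene, zp3.2 (NM_001025186), read 12.96 and 13.01 and then 9.97 and 10.92, a difference of -2.54 ± 0.31 or 5.81-fold lower (adjusted p = 0.014). Gene copies of the zp2 family are alike, and the probe sequences are not used here, so the rows of zp2.2 and zp2.3 may share signal. The count was 2 without gastrula normoxia replicate 2, 1 without either hypoxic gastrula replicate and 0 without either normoxic segmentation replicate.

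Of 3 measured among 47 listed oocyte and germ plasm genes, cldng, a claudin of cell junctions, fell (-1.57 ± 0.25; adjusted p = 0.026). The others, figla, an oocyte transcription factor gene (-0.16 ± 0.19), and the RNA-binding gene rbpms2a (-0.11 ± 0.20), did not pass. Figla read 7.89 and 8.05 in normoxic gastrulae, below the medians of those arrays, so less room was left to see a fall. None of 9 listed germ cell genes was measured. Of 10 measured among 71 listed early zygotic genes of the mesendoderm and body axis, 3 fell and 1 rose. Those that fell were the zinc finger gene blf (-1.96 ± 0.40; adjusted p = 0.048), aplnrb, a receptor that guides mesendoderm movement (-1.37 ± 0.26; adjusted p = 0.038), and osr1 of early mesendoderm (-1.26 ± 0.24; adjusted p = 0.042). The gene that rose was ripply1, which acts at somite boundaries (1.41 ± 0.19; adjusted p = 0.017).

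The list of maternal message clearance factors had 3 measured of 42, and 0 passed in the fit with dye. Among them upf1, the helicase of nonsense-mediated decay, differed by -1.72 ± 0.37 (adjusted p = 0.055), khsrp, which binds AU-rich messages, by -0.99 ± 0.33 and cnot2, of the CCR4-NOT deadenylase, by -0.30 ± 0.36. Of 34 listed genes of maternal patterning and genome activation, 2 were measured and 0 passed in that fit. They were the Wnt repressor gene tcf7l1a (-0.85 ± 0.18, adjusted p = 0.052) and tcf3a (-0.20 ± 0.19). Without the dye term upf1 (limma adjusted p = 0.027) and tcf7l1a (0.021) passed, where 4890 of 37157 rows passed in either direction. Nanog and sox19b were the only measured genes of 22 on the pluripotency list, and slbp2 was the only one of 15 on the histone message list. Of other tissues, agr1, 1 of 2 measured genes of the enveloping layer and epidermis, rose (2.603 ± 0.35, limma adjusted p = 0.017). So did fabp1b.1, 1 of 2 of the yolk syncytial layer (2.995 ± 0.19, adjusted p = 0.0037). The others were krt97 (-0.44 ± 0.26) and hnf4b (0.81 ± 0.37). Of 4 neural plate genes 0 passed in the fit with dye, and 1 rose without it.

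**Figure D2:**
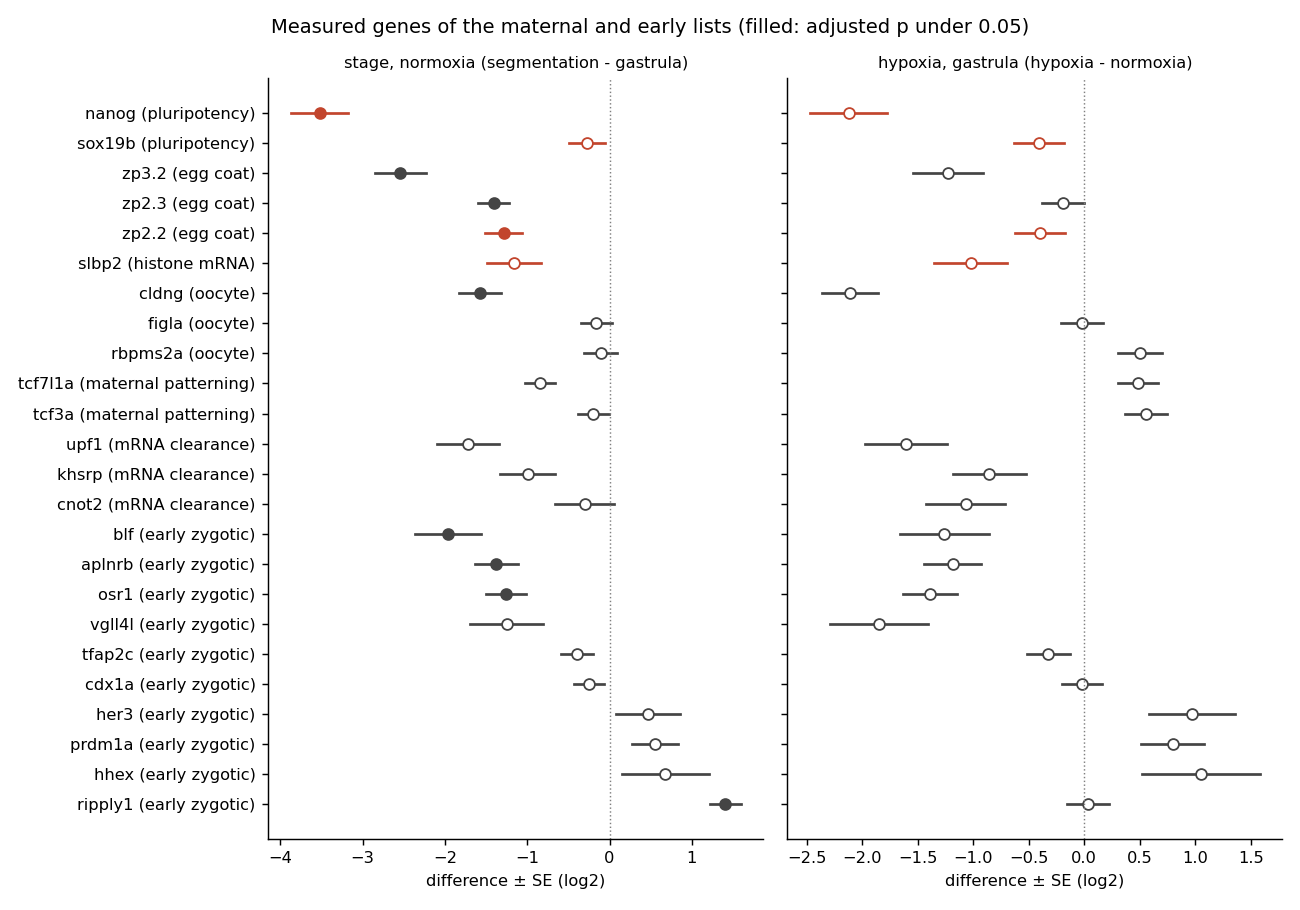
Difference on the log2 scale with its SE for the measured genes of 7 maternal and early lists, between stages in normoxia (left) and between hypoxia and normoxia in gastrulae (right), with filled points for an adjusted p under 0.05 and nanog, sox19b, slbp2 and zp2.2 in red. In the left panel all 3 egg coat genes lie left of 0 and are filled, and in the right panel 0 points are filled.

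The comparison of hypoxic with normoxic gastrulae asked how these transcripts stood after oxygen loss at 6 h. All 4 read lower on both hypoxic arrays than on both normoxic arrays, as did 29.8% of all rows, and none passed the test. In hypoxic gastrulae nanog read 12.69 and 11.59, against 14.14 and 14.39 in normoxia. Its hypoxic replicates differed by 1.10, a larger gap than that of 97.2% of rows on that pair, and the groups were still apart. The difference was -2.12 ± 0.35, a 4.35-fold lower level (interval -3.03 to -1.22; limma adjusted p = 0.067).

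This call turns on settings. Without the dye term the difference is the same and the limma adjusted p was 0.036. It was -2.62 without gastrula normoxia replicate 1, -1.63 without gastrula normoxia replicate 2, and -1.61 without gastrula hypoxia replicate 2. In the fit with dye 0% of rows passed and 9945 rows (26.8%) had an unadjusted p under 0.05, while without dye 3025 rows passed (8.14%).

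For slbp2 the hypoxic gastrula values were 8.36 and 8.52, against 9.09 and 9.83 in normoxia. The hypoxic pair was the tighter, and its higher array lay 0.57 below the lower normoxic one. The difference was -1.02 ± 0.33, or 2.03-fold lower (interval -1.87 to -0.17; limma adjusted p = 0.14), which passed without gastrula normoxia replicate 1 (-1.47, adjusted p = 0.028) and was -0.57 (adjusted p = 0.40) without gastrula normoxia replicate 2.

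The egg coat gene zp2.2 read 14.68 and 14.78 under hypoxia against 15.10 and 15.17. Replicates were at most 0.10 apart and the gap between pairs was small, with a difference of -0.40 ± 0.22 (interval -0.98 to 0.18; limma adjusted p = 0.32). The values of sox19b were 11.32 and 11.03 against 11.44 and 11.74, a difference of -0.41 ± 0.22 (interval -0.98 to 0.16; limma adjusted p = 0.31). The nearest arrays of its 2 groups were 0.11 apart.

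Bright rows as a whole read lower on the hypoxic gastrula arrays, so each gene was set beside rows of its own level. With rows in 10 equal bins by mean value, nanog and sox19b lay in bin 9, whose median difference was -0.56. The difference of sox19b was closer to 0 than that median, and nanog was below all but 2.099% of the bin. The egg coat gene zp2.2 was in bin 10, with a median of -0.20, and 37.4% of that bin lay lower. The bin of slbp2, bin 5, had a median of 0.20, above 0, and 2.83% of it lay below slbp2. The mean that set the bins includes the lower segmentation and hypoxic values of a gene. By their normoxic gastrula means, nanog (14.27) and slbp2 (9.46) would fall in the ranges of bins 10 and 7. Medians of those bins were -0.20 and -0.19, so the choice of bin matters for both genes.

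**Figure D3:**
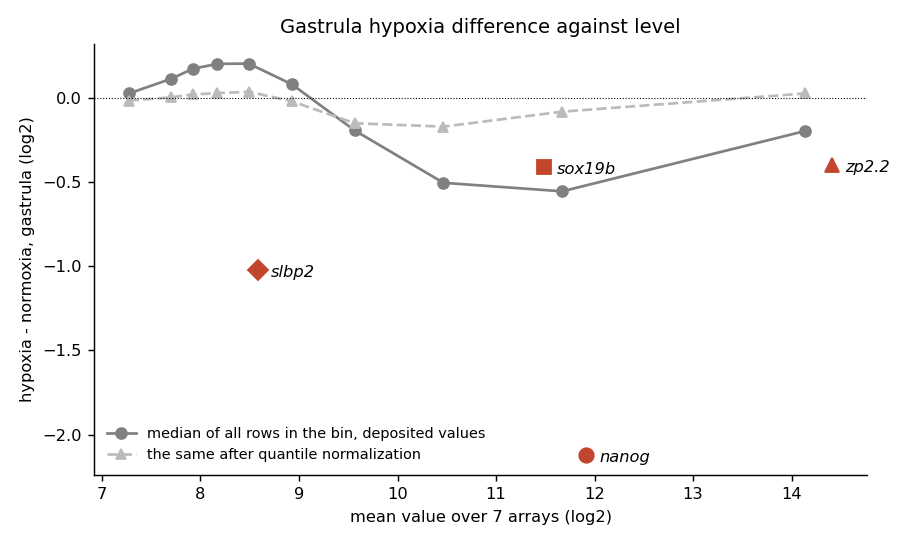
Difference between hypoxic and normoxic gastrulae (log2) against the mean value over 7 arrays, with grey lines for the medians of 10 bins of all rows in the deposited values (solid) and after quantile normalization (dashed), and red symbols for the 4 genes. The symbol of sox19b lies near the solid line, while those of nanog at -2.12 and slbp2 at -1.02 lie far below it.

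Percentile ranks, which do not depend on the spread of an array, were compared next. After centring each array on its median, the middle of all rows in this comparison went from 0.01 to -0.16. Nanog ranked at 96.7 and 97.4 on the normoxic and at 91.8 and 87.1 on the hypoxic gastrula arrays. For slbp2 the ranks went from 59.2 and 67.6 to 40.0 and 44.1. Those of zp2.2 moved little, from 98.8 and 99.0 to 98.1 and 98.6. They lie near the top of the scale, where its fall between normoxic stages moved the group rank only from 98.9 to 95.9. The ranks of sox19b overlapped, at 81.9 and 83.3 in normoxia and 83.6 and 83.1 in hypoxia, and after quantile normalization of the rows its difference was 0.10, on the other side of 0. The corresponding differences were -1.79 for nanog, -1.12 for slbp2 and -0.35 for zp2.2. Of the 4 genes 0 passed, in a setting where 0 of all 37157 rows passed.

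**Figure D4:**
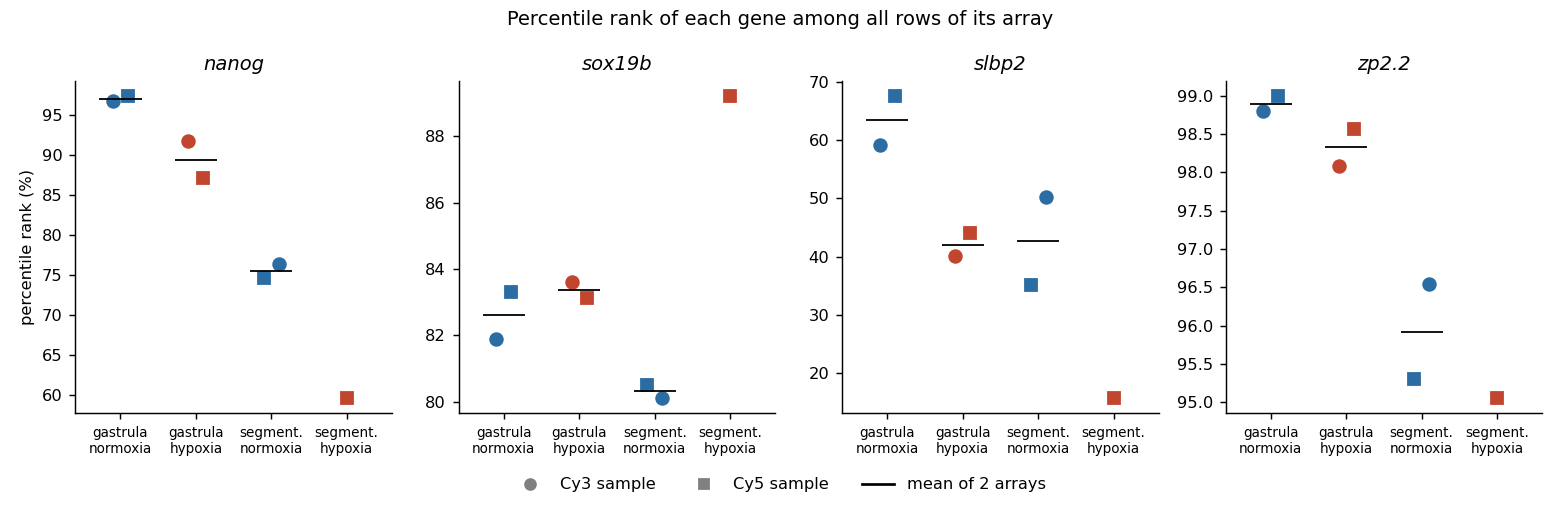
Percentile rank of each gene among the 37157 rows of its array (vertical axis in percent, a separate range for each gene) by group, blue for normoxia and red for hypoxia, with lines at the mean of 2 arrays. Gastrula ranks of nanog and slbp2 are lower in hypoxia on both arrays, and those of sox19b overlap.

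Of the 20 other measured genes of the early lists, 13 lay below 0 in hypoxic gastrulae and 0 passed, with a median of -0.26 beside 0.01 over all rows. After quantile normalization 10 of the 20 lay below 0. Without the dye term 4 fell and 0 rose, namely cldng (-2.11 ± 0.25 in the fit with dye), upf1 (-1.60 ± 0.37), osr1 (-1.39 ± 0.24) and aplnrb (-1.19 ± 0.26), whose limma adjusted p with dye ran from 0.058 to 0.088. Without dye 8.14% of all rows passed in either direction. Across the settings that kept all arrays and all 20 genes, the number that fell ran from 0 to 7. The highest came with a crossed replicate block, a pairing chosen from these same data. The early zygotic gene vgll4l differed by -1.85 ± 0.44 (adjusted p = 0.093). Among the egg coat genes zp3.2 differed by -1.23 ± 0.31 (adjusted p = 0.10), zp2.2 by -0.40 and zp2.3 by -0.19 ± 0.19, which was 0.14 after quantile normalization. Those above 0 were hhex (1.05 ± 0.53), her3 (0.97 ± 0.38), prdm1a (0.79 ± 0.28), tcf3a (0.56 ± 0.19), rbpms2a (0.50 ± 0.20), tcf7l1a (0.48 ± 0.18) and ripply1 (0.03 ± 0.19), the last of which was -0.14 after median centring. In the clearance list cnot2 differed by -1.07 ± 0.36 and khsrp by -0.85 ± 0.33.

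At 8 somites 1 hypoxic array was set against 2 normoxic ones, so the spread of the other groups had to stand in for its own, and the dye term enters this difference because its sample was labelled with Cy5. The hypoxic array also had the narrower interquartile range (2.51, against 2.78 and 3.02). In bin 9, which holds nanog and sox19b, the median difference was -0.24. Nanog read 9.11 in the hypoxic sample, the lowest of its 7 values, against 10.55 and 10.94, and ranked at 59.6 against 74.6 and 76.4. The fitted difference was -1.43 ± 0.45 (interval -2.59 to -0.26; limma adjusted p = 0.65, unadjusted p = 0.026). For slbp2 the hypoxic value was 7.67 against 8.06 and 8.55, also the lowest of its arrays, with a difference of -0.71 ± 0.42 (interval -1.80 to 0.39; adjusted p = 0.83). Leaving out segmentation normoxia replicate 1 gave -1.34, and leaving out replicate 2 gave -0.39. The hypoxic slbp2 value was low on its array, at the 15.6 percentile, against 35.2 and 50.3 in normoxia. The value of zp2.2 was 13.45 against 13.62 and 14.08, with a difference of -0.36 ± 0.29 (interval -1.10 to 0.39; adjusted p = 0.93).

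The direction differed for sox19b, which read 12.26 in the hypoxic sample against 11.26 and 11.37. That value is the highest on any array, 0.52 above the next, and ranked at the 89.2 percentile, where the other 6 arrays lay between 80.1 and 83.6. The difference was 0.96 ± 0.29 (interval 0.22 to 1.70; limma adjusted p = 0.64, unadjusted p = 0.021), and 1.19 after quantile normalization. None of the 4 genes passed, in a comparison where 0% of rows passed with dye, 2634 rows (7.09%) had an unadjusted p under 0.05, and 9 rows (0.0242%) passed without dye. The hypoxic value was below both normoxic values for 3 of the genes, as for 38.4% of all rows, and above both for sox19b, as for 33.7%. The course of sox19b, below normoxia on both hypoxic gastrula arrays and above it on the hypoxic segmentation array, was shared by 1.87% of rows. That share describes a course read from the same values and is no test. The gastrula side of it lay at 0.10 after quantile normalization.

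The neural plate list, to which sox19b belongs, had 4 measured of 29 genes, and 0 passed here. The homeobox gene gbx1 differed by 0.36 ± 0.33, the forebrain gene fezf2 by 0.35 ± 0.26 and the repressor gene her3 by -0.20 ± 0.50.

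Whether hypoxia acted differently at the stages was tested as the difference between the hypoxia differences. It was 1.37 ± 0.36 for sox19b (interval 0.43 to 2.31; limma unadjusted p = 0.013, adjusted p = 1.00), 0.69 ± 0.57 for nanog, 0.31 ± 0.54 for slbp2 and 0.04 ± 0.37 for zp2.2. Intervals for the last 3 included 0 and were wide, from -0.78 to 2.17 for nanog, -1.07 to 1.70 for slbp2 and -0.90 to 0.99 for zp2.2. In this test 0% of rows passed and 1569 rows (4.22%) had an unadjusted p under 0.05. On every hypoxic array nanog, slbp2 and zp2.2 read below the normoxic arrays of their stage, as did 22.2% of all rows.

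The change between stages was also measured among hypoxic embryos, with 1 array at 8 somites. There nanog differed by -2.83 ± 0.45 (interval -3.99 to -1.66; limma adjusted p = 0.059), zp2.2 by -1.24 ± 0.29 (interval -1.99 to -0.49; adjusted p = 0.13) and slbp2 by -0.84 ± 0.42 (interval -1.94 to 0.25; adjusted p = 0.45). For sox19b the difference was 1.10 ± 0.29 (interval 0.36 to 1.84; adjusted p = 0.17). None of the 4 passed, where 2.4% of all rows did, and without the dye term nanog passed (-3.03, limma adjusted p = 0.027), where 4.18% of rows did. This comparison shares its arrays with the hypoxia differences above.

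**Figure D5:**
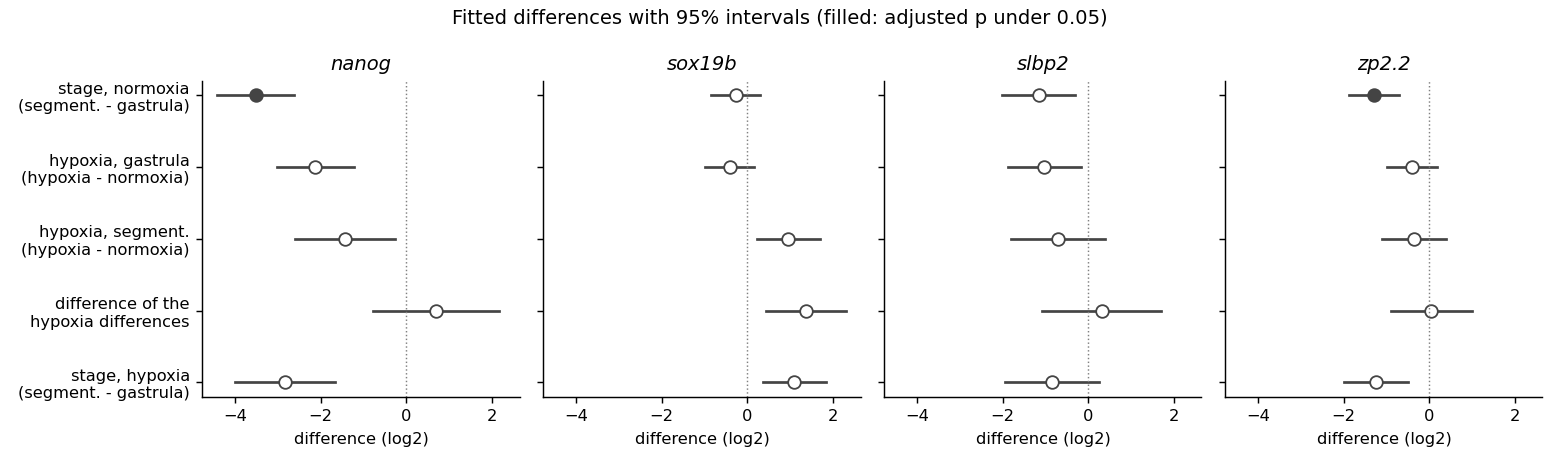
Fitted differences on the log2 scale (points) with 95% intervals (lines) for 5 comparisons of the 4 genes, with filled points for an adjusted p under 0.05. The filled points are the normoxic stage differences of nanog (-3.52) and zp2.2 (-1.28), and sox19b alone has its segmentation hypoxia point right of 0.

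Over the 7 arrays nanog correlated with zp2.2 (r = 0.938) and slbp2 (r = 0.901), and slbp2 with zp2.2 (r = 0.852), as a description of points that share stage, oxygen and array. The correlation of sox19b with nanog was -0.26 over 7 arrays and 0.70 over the 6 without the hypoxic segmentation array. The genes with the most similar course, among 1121 with a symbol and a range of at least 1 log2 unit, were then listed.

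For nanog these were the claudin gene cldn30 (r = 0.992), zgc:114041 (0.991) and the endocytic adaptor gene necap1 (0.989). In cldn30 the values ran from 12.81 and 13.13 in normoxic gastrulae to 10.10 in the hypoxic segmentation sample. For slbp2 they were the ubiquitin ligase gene neurl1ab (0.990), the protein S gene pros1 (0.987) and elmo1, which acts in engulfment (0.986). For zp2.2 they were snrpa1, of the U2 spliceosome particle (0.996), the lipoxygenase gene alox5b.3 (0.992) and the lipid transfer gene pitpnc1b (0.981).

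The gene nearest to sox19b was the heat shock gene hsp70.3 (r = 0.889), followed by ttc14 (0.804) and the rhomboid protease gene rhbdd1 (0.761). These likenesses rest on the hypoxic segmentation array, where hsp70.3 read 11.80 and its other 6 values lay between 8.35 and 8.78. Over the other 6 arrays the correlations with sox19b were 0.61, 0.49 and 0.29. The 9 genes listed for nanog, slbp2 and zp2.2 had r of 0.971 or more there, on arrays that also served to choose them.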

How the data were processed

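The authors deposited 1 table of array values that run from 6.85 to 15.96 and are log2 by inference. Per the submitters' processing notes RMA, a background, quantile and median polish summary, was used, with no version. Array medians (8.51 to 8.74) and interquartile ranges (2.18 to 3.02) still differed, so the deposited arrays did not share a common distribution. Per the labels' protocols TRIzol was used for RNA extraction, and each sample's cDNA carried either Cy3 or Cy5. The array design and scanner are not given in the sources used here, and 1 of 8 sample columns is empty. A RefSeq gene table of assembly GRCz12tu gave a symbol to 2663 of the 3055 rows named by a RefSeq transcript, matched without versions.

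A linear model with 4 groups and dye was fitted to all rows and 7 arrays in limma 3.58.1 (R 4.3.3), with empirical Bayes moderation, 2 residual and 2.92 prior degrees of freedom, two-sided tests and Benjamini-Hochberg adjustment over all rows at 0.05. Errors are SE of this fit unless stated. The series' design calls the replicates biological without saying what was separate, so p-values cover only the spread seen among them, which may be technical, and the number of arrays limits the precision. Bins and ranks were taken over all rows. The code was tested on simulated data.

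The 4 genes and the 12 lists were chosen with earlier results of these data known. Named genes are the 4, list members past the threshold or, where none passed, those with the smallest p, other list members given as values, and for each of the 4 the 3 genes with the highest r. The list members named beyond this rule were chosen after their values were seen. Alternatives were no dye, replicate blocks, quantile normalization, median centring, a filter on low rows, an intensity trend, the compared arrays alone and leaving out each array.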

Additional observations from a re-analysis of the deposited data

Results flagged for a closer look

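The difference between the hypoxia differences of sox19b, 1.37 on the log2 scale, was singled out because both hypoxic gastrula arrays lay below both normoxic ones while the hypoxic segmentation array lay above both of its normoxic arrays. That course was seen in 1.87% of all rows (696), a share that describes a course read from the same values and is no test. The limma test of this difference did not pass (adjusted p = 1.00), the segmentation side is 1 array, and the gastrula side lies at 0.10 after quantile normalization.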

How the results depend on the processing

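The gastrula hypoxia difference of nanog (-2.12) passed without dye, with a crossed replicate block, with an intensity trend and after dropping the lowest 25% of rows, at the same value, and at -2.30 after median centring. Its stage difference in hypoxia passed at -3.03 without dye, -2.70 with the crossed block, -3.15 after quantile normalization, and -2.83 without low rows or with the trend. With replicate number as a block in place of dye, slbp2 passed between stages (-1.16), as did 4367 of 37157 rows in either direction. With the block within stage, nanog (-3.93) and zp2.2 (-1.47) no longer passed, nor did zp2.2 on the compared arrays alone (-1.28), a fit with fewer samples. Otherwise the cause of these changes was not tested. Same-numbered gastrula arrays deviated with r = -0.15 (hence the crossed block) and normoxic arrays of the stages with 0.54. Gastrula hypoxia and segmentation normoxia gave -0.27. As signs were mixed, the main fit did not pair by number. The crossed pairing is not in the labels and was chosen by the sign of r in these same data. Its calls for gastrula hypoxia are therefore no separate support. At the gastrula stage replicate number and dye coincide.

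The sign turned for the gastrula hypoxia difference of sox19b after quantile normalization (0.10) and for the difference between the hypoxia differences of zp2.2 without dye (-0.0025). Leaving out 1 array at a time gave -4.02 to -3.03 for nanog between stages, -2.63 to -1.61 for its gastrula hypoxia difference and -3.51 to -2.49 for its stage difference in hypoxia. The ranges were -1.63 to -0.68 and -1.47 to -0.57 for slbp2 between stages and under gastrula hypoxia, and -1.55 to -1.01 for zp2.2 between stages. For the difference between the hypoxia differences they were 0.01 to 1.36 for nanog, 1.11 to 1.71 for sox19b, -0.32 to 0.92 for slbp2 and -0.32 to 0.24 for zp2.2. For segmentation hypoxia they were -1.60 to -1.26 for nanog, 0.89 to 1.05 for sox19b, -1.34 to -0.39 for slbp2 and -0.72 to -0.17 for zp2.2. Under the other alternatives 160 results kept direction and side of the threshold, 11 gained and 3 lost the call and 2 changed sign. With an array left out these numbers were 112, 5, 7 and 4. Rows called between stages in normoxia numbered 3749, and 676 with the block within stage, 2286 with the crossed block, 1918 on the compared arrays alone, and 619 to 6036 with an array left out. Rows called for gastrula hypoxia numbered 0, and 1375 with the replicate block, 5348 crossed, 1300 after centring, 2002 without low rows, 1712 with the trend and 8275 without gastrula normoxia replicate 1. For the stage difference in hypoxia they numbered 890, and 1555 without dye, 0 with the block within stage and 0 to 2568 with an array left out. For segmentation hypoxia and the stage difference in hypoxia, the compared arrays alone leave 0 residual degrees of freedom with dye. Without dye, an alternative chosen after seeing the data, they leave 1, and 0 rows passed in limma, with 3466 and 5288 at an unadjusted p under 0.05. Over rows with a symbol alone, the group ranks of nanog were 98.6, 94.1, 83.1 and 64.0. Background readings were not analysed here.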
